A study of Mus musculus with 9 samples.

Results

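The 5p arms of the miR-30 family were measured in small extracellular vesicles from mouse serum, as the read counts of 5 microRNAs (mmu-miR-30a-5p, mmu-miR-30b-5p, mmu-miR-30c-5p, mmu-miR-30d-5p and mmu-miR-30e-5p, written below without the species prefix) among the 1064 known microRNAs counted. The members were chosen by name, as 5p arms with a common seed, though with earlier results of these data known. Small RNA sequencing covered 9 libraries of male mice in 3 groups of 3. HFD Sirt3 AKI mice were fed a high fat diet and overexpressed Sirt3, a mitochondrial deacetylase, in adipose tissue; HFD WT mice were wild type on the high fat diet, and chow WT mice were wild type on chow. The labels name neither the age of the mice, the length of the diet, the number of mice behind a library nor the promoter that drives Sirt3, and p-values therefore measure the spread between these samples. The library names of the HFD WT group carry the code SIRT3CKI, and Sirt3 itself is not measured by small RNA sequencing, so its level checks neither label.

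MicroRNAs guide Argonaute proteins to messenger RNAs mainly through the seed, the bases near the 5′ end that pair with the target, so microRNAs with one seed have largely overlapping sets of predicted targets. The miR-30 family is abundant in many tissues, including kidney, heart, muscle and fat, and has been studied in adipocyte differentiation. Its members are cut from hairpins at several loci, each of which gives a 5p and a 3p arm. In this family the 5p arm is the guide with the shared seed, and the 3p arm carries another seed.

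The mature sequences below are shown because the shared seed and the near identity of members decide which reads can be told apart. The RefSeq table of the GRCm38.p6 build matched 3 of the 5 members. miR-30b-5p and miR-30d-5p had no sequence there, so how far their reads can be told apart from those of other members was not checked. Capitals mark the seed, bases 2 to 8 from the 5′ end.
miR-30a-5p: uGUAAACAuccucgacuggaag
miR-30e-5p: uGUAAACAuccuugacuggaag
miR-30c-5p: uGUAAACAuccuacacucucagc
miR-384-5p: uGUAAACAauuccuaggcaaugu
All 4 mature names with this seed in the table are listed here, of 1679 mature names. miR-30a-5p and miR-30e-5p were equal at 21 of 22 bases and differed by C13U, counted from 1 at the 5′ end with the base of miR-30a-5p first. miR-30c-5p shared its first 12 bases with both and 17 of 22 in all. The sources used here do not give how many mismatches the counting allowed, so reads of miR-30a-5p and miR-30e-5p could have been split between the pair or shared. No pair of members had identical counts over the 9 libraries. miR-384-5p is not a named member of the family. It had 72 counts in total, 37 of them in HFD Sirt3 AKI replicate 2, and did not pass the filter on low counts.

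The loci place some members side by side. Mir30a (mature 5p arm at chr1:23272274-23272295, plus strand) lies 19361 bases from Mir30c-2 (chr1:23291714-23291736, plus strand), in GRCm38.p6. Mir30c-1 (chr4:120769584-120769606, minus strand) and Mir30e (chr4:120772660-120772681, minus strand) lie 2983 bases apart, both in introns of Nfyc, a subunit gene of the transcription factor NF-Y. Mir30b and Mir30d are neighbours on chromosome 15 with 0 annotated genes between them. Mature miR-30c-5p is the same in both of its hairpins, so its counts cannot be assigned to chromosome 1 or 4. Both hairpins are printed with their 5p and 3p arms in capitals, since only the 3p arms separate them.
Mir30c-1: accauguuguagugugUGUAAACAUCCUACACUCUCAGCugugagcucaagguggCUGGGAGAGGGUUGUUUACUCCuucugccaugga
Mir30c-2: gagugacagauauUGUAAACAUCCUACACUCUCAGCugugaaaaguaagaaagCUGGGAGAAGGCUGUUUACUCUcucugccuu
Against the 3p arm of Mir30c-1, that of Mir30c-2 differed by G9A, U12C and C22U. Over the 9 libraries miR-30c-2-3p had 325 counts and miR-30c-1-3p had 32.

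Depth differed between the groups. Library totals were 1729416 to 2973432 counts in HFD Sirt3 AKI, 1953935 to 2162009 in HFD WT and 225002 to 306974 in chow WT. Every member had at least 155 counts in each library, and the counting error (the coefficient of variation of a Poisson count) of the scarcest, miR-30b-5p, reached 5.45%, 5.11% and 8.03% in those groups. Counting errors and intervals cover sampling of reads only, since reads are not independent molecules. Levels are normalised CPM, counts divided by a library size that was scaled by TMM, edgeR's trimmed mean of log ratios. TMM factors were 0.906 to 1.09 in HFD Sirt3 AKI, 0.757 to 0.832 in HFD WT and 1.28 to 1.33 in chow WT. Because these factors differ between the diets, each result below is also given in a form that needs no scaling.

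Markers of blood and tissue cells moved with the groups. The 4 red cell microRNAs made up 29.1 to 33.7% of counts in HFD Sirt3 AKI, 30.4 to 32.2% in HFD WT and 20.6 to 23.5% in chow WT. The 2 hepatocyte microRNAs held 0.822 to 3.40%, 0.537 to 0.613% and 1.42 to 1.74% in the same groups, and the 7 epithelial ones 0.670 to 1.72%, 0.332 to 0.470% and 1.44 to 1.60%. The 4 adipocyte microRNAs held 0.433 to 0.474%, 0.306 to 0.498% and 0.890 to 0.976%. Sums for platelets and myeloid cells (1.04 to 1.30%), endothelium (2.06 to 2.70%) and striated muscle (0.722 to 1.27%) had overlapping ranges in all 3 groups. No marker of these lists was at 0, and 2 of the red cell names, miR-486a-5p and miR-486b-5p, had identical counts in all 9 libraries. The higher red cell sum in the high fat diet groups came from this pair. The share of miR-144-3p was lower in every high fat diet library than in every chow WT library. That of miR-451a overlapped between HFD WT and chow WT, and was lower in every HFD Sirt3 AKI library than in every chow WT library. The part of these cells in the results on miR-30 was not tested, and vesicle proteins were not measured. By the batch label, replicates 2 and 3 of HFD Sirt3 AKI form one batch and the remaining 7 libraries another. HFD Sirt3 AKI replicate 2 stood apart with the highest hepatocyte sum, and results of that group are therefore given without it where they change.

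Summed over the family, the 5 members took 1.84, 2.18 and 1.83% of all counts in the HFD Sirt3 AKI libraries, 1.45, 1.401 and 1.60% in HFD WT and 2.05, 2.15 and 2.04% in chow WT. HFD WT was the low group, and its libraries did not overlap with those of either other group. The means were 1.95 ± 0.199% in HFD Sirt3 AKI, 1.48 ± 0.104% in HFD WT and 2.08 ± 0.0611% in chow WT (SD, n = 3 each). A two-sided exact permutation test gave p = 0.1 for HFD WT against chow WT and for HFD Sirt3 AKI against HFD WT, which is the smallest p that 3 against 3 allow, and p = 0.4 for HFD Sirt3 AKI against chow WT. The last difference, -0.13 percentage points, was -0.245 without HFD Sirt3 AKI replicate 2, and 0.17 when red cell markers were left out of the totals. After TMM scaling the sum was 19939 ± 213 CPM in HFD Sirt3 AKI, 18892 ± 1700 in HFD WT and 15937 ± 561 in chow WT, so the order of HFD WT and chow WT depended on the scaling. Fewer cells that release a microRNA and less of it per cell cannot be told apart in serum.

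miR-30d-5p was the most abundant member in both high fat diet groups. In mouse beta cells this microRNA is known to respond to glucose. It had 10064, 8697 and 10581 normalised CPM in HFD Sirt3 AKI, 7321, 7465 and 8573 in HFD WT and 4104, 4642 and 4154 in chow WT. No value of one group overlapped with another, and chow WT was lowest. Among known microRNAs it ranked 20 in HFD Sirt3 AKI, 21 in HFD WT and 31 in chow WT.

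miR-30a-5p, known to repress the autophagy gene BECN1 in human cells, had 4386, 6094 and 4746 normalised CPM in HFD Sirt3 AKI, 4776, 5188 and 5994 in HFD WT and 4708, 5383 and 4846 in chow WT. The groups overlapped throughout, with the highest value in HFD Sirt3 AKI replicate 2. miR-30e-5p, its near twin from the Nfyc locus, had 3657, 3569 and 3298 in HFD Sirt3 AKI, 3638, 4064 and 4311 in HFD WT and 3392, 3664 and 3796 in chow WT. These groups overlapped too.

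miR-30c-5p, known to repress the lipoprotein assembly gene Mttp in liver, and miR-30b-5p have together been linked to thermogenic genes in mouse brown fat. miR-30c-5p had 1404, 1281 and 1360 normalised CPM in HFD Sirt3 AKI, 1467, 1517 and 1573 in HFD WT and 3341, 2333 and 2019 in chow WT. miR-30b-5p had 226, 279 and 176 in HFD Sirt3 AKI, 213, 277 and 299 in HFD WT and 489.7, 420.1 and 518 in chow WT. For both members every chow WT library lay above every high fat diet library. For miR-30c-5p the 3 chow WT libraries spread widely, with replicate 1 highest.

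Within a group the 5 levels kept apart. In HFD Sirt3 AKI and in HFD WT the order was miR-30d-5p, miR-30a-5p, miR-30e-5p, miR-30c-5p and miR-30b-5p, and in chow WT miR-30a-5p stood above miR-30d-5p with the rest unchanged in order. No neighbours in these orders had overlapping library values, the closest being miR-30e-5p and miR-30c-5p in chow WT, with a lowest value of 3392 and a highest of 3341 CPM. Levels of different microRNAs also carry the bias of adapter ligation, which was not measured. The coefficient of variation between libraries of the members ran from 4.63 to 22.6% in HFD Sirt3 AKI, 3.48 to 17.0% in HFD WT and 5.70 to 26.9% in chow WT. The median over 166 known microRNAs with a mean of at least 100 CPM was 15.4%, 9.42% and 9.64% in those groups.

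**Figure D1:**
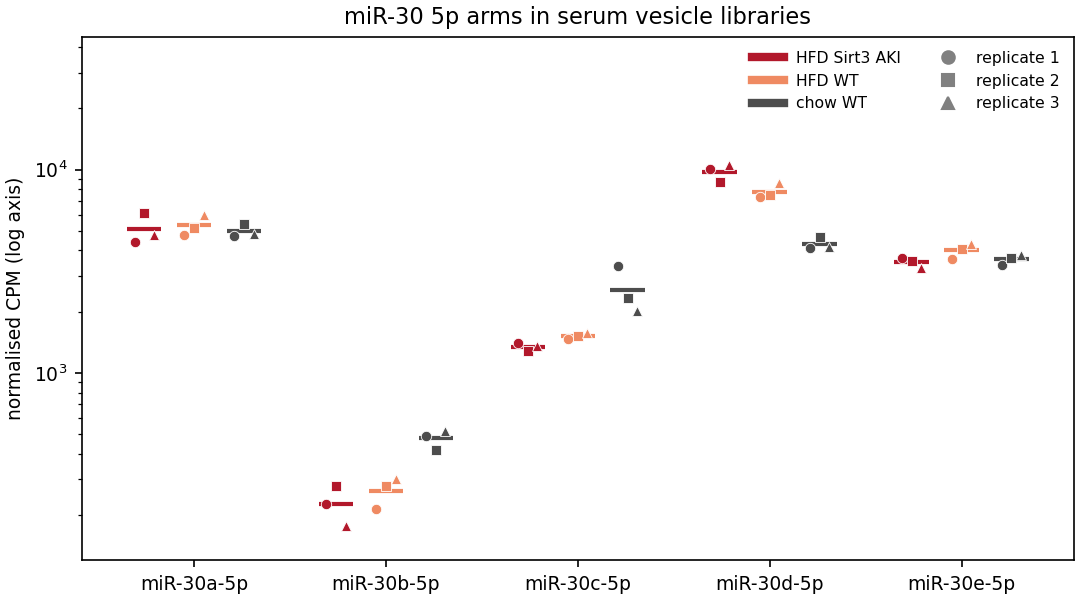
Normalised CPM (log axis) of the 5 members in each library; colours are the 3 groups, symbols the replicate numbers and horizontal lines the group means. For miR-30d-5p the chow WT libraries lie lowest (4104 to 4642 CPM), and for miR-30b-5p and miR-30c-5p they lie highest, while the groups overlap for miR-30a-5p and miR-30e-5p.

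The effect of the diet was read from HFD WT against chow WT with edgeR's quasi-likelihood test over 414 tested microRNAs (adjusted p by Benjamini-Hochberg, called below 0.05). Every chow WT library was shallower than every HFD WT library, so diet and depth cannot be told apart in this comparison. miR-30d-5p was 1.81-fold higher (log2 fold change 0.86, SE 0.12, adjusted p = 2.09e-04). miR-30b-5p was lower, by -0.85 on the log2 scale (SE 0.20, adjusted p = 0.00644), which is 1.81-fold lower. miR-30c-5p was 1.69-fold lower (log2 fold change -0.76, SE 0.17, adjusted p = 0.00507), and stood at -0.51 without chow WT replicate 1. Neither miR-30a-5p (0.10, SE 0.14, adjusted p = 0.661) nor miR-30e-5p (0.15, SE 0.11, adjusted p = 0.344) passed the test.

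Thus 1 of 5 members was called higher, where 21.5% of all tested microRNAs were, and 2 of 5 lower, where 16.2% were. The median log2 fold change was 0.10 over the members and 0.15 over all tested. Of the markers, 2 of 4 red cell microRNAs were called higher in HFD WT and none lower. Those 2 were miR-486a-5p and miR-486b-5p, the pair with identical counts. Of the epithelial ones 1 of 7 was called higher and 4 lower, and of the adipocyte ones 0 of 4 higher and 2 lower. Of the 2 hepatocyte ones 0 were called higher and 1 lower. Both markers of platelets and myeloid cells, the 1 endothelial marker and 2 of 3 striated muscle markers were called higher by edgeR, as miR-30d-5p was. Of these, miR-223-3p, a myeloid and platelet microRNA, was 3.02-fold higher and miR-126a-3p, of endothelium, 1.82-fold higher. The shares of these lists in all counts overlapped between the groups, but miR-142a-3p had more counts than miR-223-3p in every library. The share of miR-223-3p alone was higher in every HFD WT library than in every chow WT library. That of miR-142a-3p, the other member of its list, was lower in every HFD WT library than in every chow WT library. The part of these markers in the miR-30d-5p result was not tested.

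The fold changes depended on what the libraries were scaled to. With library totals in place of TMM, the median of all tested moved to -0.57, and the calls over all tested went to 20 higher and 143 lower, in place of 89 and 67. miR-30a-5p (-0.64, adjusted p = 0.0167) and miR-30e-5p (-0.59, adjusted p = 0.00292) were then called lower, and miR-30d-5p (0.12, adjusted p = 0.352) was not called. Another scaling shifts every microRNA and the median nearly alike by construction, so a position relative to the median is no test of robustness. With TMM, miR-30d-5p stood at 0.70 relative to the median of all tested, miR-30b-5p at -1.01, miR-30c-5p at -0.91, miR-30a-5p at -0.06 and miR-30e-5p at -0.0068.

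**Figure D2:**
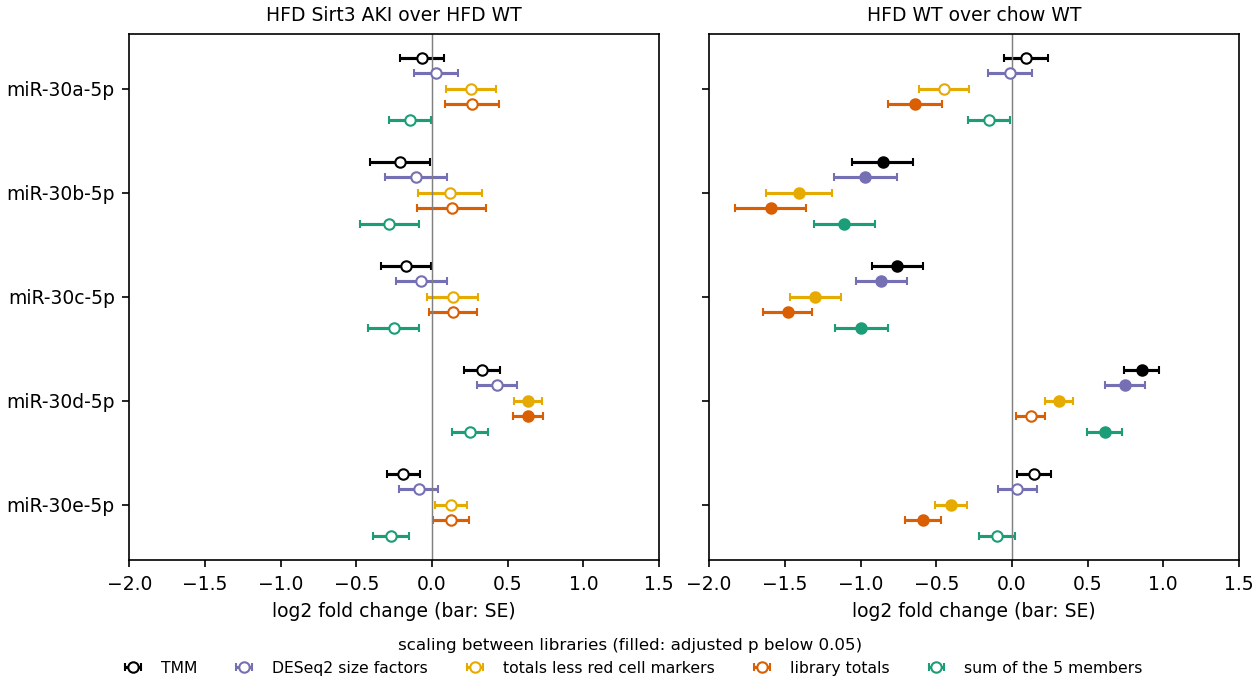
Log2 fold change (horizontal axis; bars are SE) of each member in HFD Sirt3 AKI over HFD WT and in HFD WT over chow WT, with colours for 5 ways of scaling the libraries and filled symbols for adjusted p below 0.05. A change of scaling shifts all 5 members together by construction, so that miR-30d-5p stays to the right of the other 4 and, for the diet, miR-30b-5p and miR-30c-5p stay to the left.

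Shares within the family need no scaling between libraries, but they answer another question. They compare each member with the sum of the 5, which itself differed between the groups, and do not show whether a member rose or fell in level. miR-30d-5p made up 51.0, 43.7 and 52.5% of the family's counts in HFD Sirt3 AKI, 42.0, 40.3 and 41.3% in HFD WT and 25.6, 28.2 and 27.1% in chow WT. The 3 groups did not overlap, and the 95% Clopper-Pearson interval of HFD Sirt3 AKI replicate 2 (43.2 to 44.2%), its lowest library, lay above that of HFD WT replicate 1 (41.5 to 42.6%). These intervals cover the sampling of reads in 1 library and not the spread between libraries, so they do not test the groups. Means were 49.0 ± 4.72%, 41.2 ± 0.858% and 27.0 ± 1.32% in those groups (SD, n = 3 each).

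miR-30c-5p made up 7.11, 6.43 and 6.75% in HFD Sirt3 AKI, 8.43, 8.19 and 7.58% in HFD WT and 20.8, 14.2 and 13.2% in chow WT. Its share in every chow WT library exceeded that in every other library. miR-30b-5p averaged 1.14 ± 0.264% in HFD Sirt3 AKI, 1.39 ± 0.145% in HFD WT and 3.00 ± 0.415% in chow WT, with the same separation. miR-30a-5p averaged 25.5 ± 4.50%, 28.1 ± 0.735% and 31.2 ± 1.72%, and miR-30e-5p 17.6 ± 1.12%, 21.2 ± 0.650% and 22.7 ± 1.84%, in HFD Sirt3 AKI, HFD WT and chow WT. Shares sum to a fixed whole, so a higher share of one member lowers the others'.

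**Figure D3:**
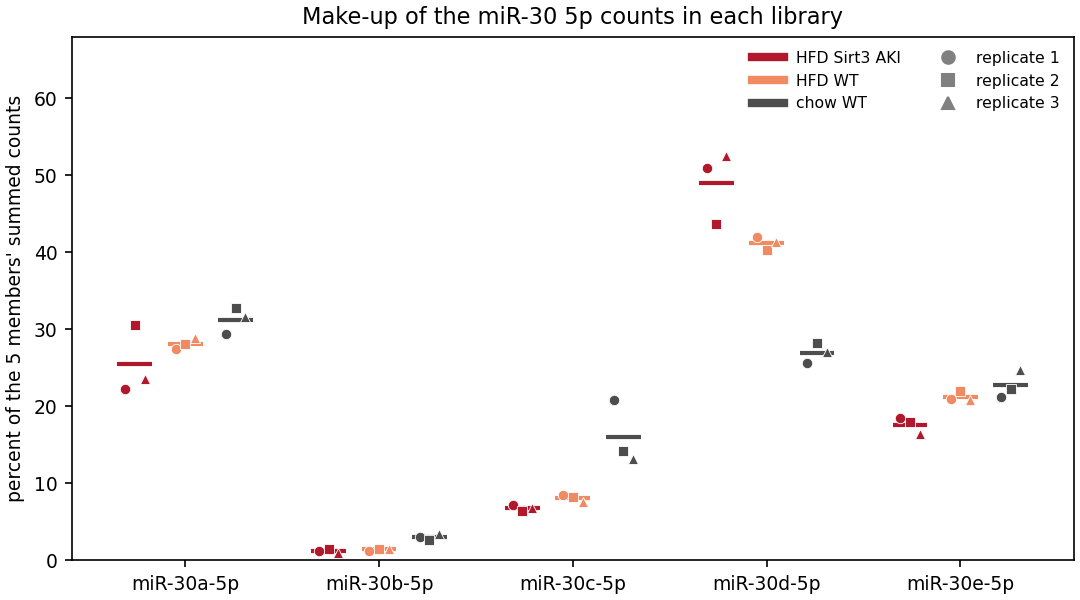
Percent of the 5 members' summed counts held by each member (vertical axis) in each library; colours are the 3 groups, symbols the replicate numbers and lines the group means. miR-30d-5p holds 43.7 to 52.5% in HFD Sirt3 AKI, 40.3 to 42.0% in HFD WT and 25.6 to 28.2% in chow WT.

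Scaled to the sum of the 5 members, the edgeR test called the same 3 members for the diet. miR-30d-5p was higher (log2 fold change 0.61, adjusted p = 0.00181), and miR-30b-5p (-1.11, adjusted p = 0.00129) and miR-30c-5p (-0.99, adjusted p = 9.93e-04) were lower. Under this scaling 11.6% of all tested microRNAs were called higher and 21.5% lower, with a median of -0.08. Without chow WT replicate 1, miR-30c-5p stood at -0.76.

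Ratios of one member to another inside a library need no scaling either. The ratio of miR-30d-5p to miR-30b-5p was 44.5, 31.1 and 60.0 in HFD Sirt3 AKI, 34.4, 27.0 and 28.6 in HFD WT and 8.38, 11.1 and 8.02 in chow WT. The lowest high fat diet library was above the highest chow WT library, and the ratio was 3.29-fold higher in HFD WT than in chow WT. For miR-30d-5p to miR-30c-5p the ratios were 7.17, 6.79 and 7.78 in HFD Sirt3 AKI, 4.99, 4.92 and 5.45 in HFD WT and 1.23, 1.99 and 2.06 in chow WT, 2.99-fold higher in HFD WT than in chow WT. miR-30d-5p to miR-30a-5p was 2.29, 1.43 and 2.23 in HFD Sirt3 AKI, 1.53, 1.44 and 1.43 in HFD WT and 0.872, 0.862 and 0.857 in chow WT.

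Of the 10 pairs of members, 8 had no overlap between HFD WT and chow WT, each with an exact two-sided permutation p = 0.1, the smallest possible, and 0.125 after adjustment over the pairs. The other 2 were miR-30a-5p with miR-30e-5p (difference in log2 ratio -0.05, exact p = 0.7) and miR-30b-5p with miR-30c-5p (-0.14, exact p = 0.8). The 10 ratios are built from the counts of the same 5 members, so they restate the member values and are not separate results. How often pairs of other microRNAs separated was not computed. With TMM, edgeR called the 5p arms of the neighbours Mir30b and Mir30d in opposite directions. It did so too with the family as library size. There a rise of the most abundant member lowers the others by construction, so that setting is no separate test. Scaling to library totals left miR-30d-5p uncalled (0.12, adjusted p = 0.352, edgeR), with miR-30b-5p still called lower (-1.59). The share of miR-30d-5p in all counts averaged 0.612% in HFD WT and 0.561% in chow WT (exact permutation p = 0.2).

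The effect of adipose Sirt3 overexpression was read from HFD Sirt3 AKI against HFD WT, which shares the HFD WT libraries with the comparison above. With TMM scaling 0 of 5 members were called by edgeR, where 8.94% of all tested microRNAs were, and 1 member, miR-30d-5p, had an unadjusted p below 0.05. miR-30d-5p stood 0.33 higher on the log2 scale (SE 0.12, adjusted p = 0.106), with all 3 HFD Sirt3 AKI libraries above all 3 HFD WT libraries. The other members stood at -0.07 (miR-30a-5p, adjusted p = 0.799), -0.21 (miR-30b-5p, 0.539), -0.17 (miR-30c-5p, 0.563) and -0.19 (miR-30e-5p, 0.296). The median was -0.17 over the members and -0.02 over all tested.

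For miR-30d-5p the call turned on single choices. Without HFD Sirt3 AKI replicate 2 it was called higher (0.44, adjusted p = 0.0181). In the larger batch alone, which leaves HFD Sirt3 AKI with 1 library assumed to vary like the other groups, it was also called higher (0.51, adjusted p = 0.0190). With all libraries and the batch label as a term it was not called (0.37, adjusted p = 0.380), and 0 microRNAs were called higher and 1 lower over all tested. DESeq2 called it at 0.43 (adjusted p = 0.0302), and edgeR with library totals at 0.63 (adjusted p = 0.00622). Library totals moved the median of all tested to 0.27 and the split of calls to 36 higher and 11 lower, in place of 6 and 31. The number called over all tested, 37, itself moved with single libraries: it was 102 without HFD Sirt3 AKI replicate 1, 19 without its replicate 3, and 23, 17 and 13 without HFD WT replicates 1, 2 and 3. It was 24 without either of chow WT replicates 1 and 2, and 3 with only the 2 groups fitted.

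Scaled to the family, 0 members were called in this comparison, where 9.90% of all tested were, and 1 of 5, miR-30e-5p, had an unadjusted p below 0.05. miR-30d-5p stood at 0.25 (adjusted p = 0.202) and miR-30e-5p at -0.27 (adjusted p = 0.184). The ratio of miR-30d-5p to miR-30c-5p was 1.41-fold higher in HFD Sirt3 AKI than in HFD WT, and that of miR-30d-5p to miR-30e-5p 1.43-fold higher. Neither ratio overlapped between the groups, with an exact permutation p = 0.1 and 0.5 after adjustment over the 10 pairs. The other 8 pairs overlapped, and here too the 10 pairs are not separate results. For miR-30d-5p to miR-30a-5p and to miR-30b-5p the overlap came only from HFD Sirt3 AKI replicate 2, at 1.43 and 31.1. The HFD WT ratios were 1.43 to 1.53 and 27.0 to 34.4. HFD Sirt3 AKI replicates 1 and 3 had 2.29 and 2.23 for the former, and 44.5 and 60.0 for the latter.

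HFD Sirt3 AKI against chow WT differs in diet, genotype and depth and shares libraries with both comparisons above. miR-30d-5p was 2.27-fold higher (log2 fold change 1.19, adjusted p = 1.89e-05). miR-30b-5p (-1.07, adjusted p = 0.00157) and miR-30c-5p (-0.93, adjusted p = 0.00136) were lower, and miR-30a-5p (0.03, adjusted p = 0.906) and miR-30e-5p (-0.04, adjusted p = 0.788) did not pass. With library totals miR-30e-5p was called lower too (-0.46, adjusted p = 0.0115, edgeR), as it was by limma on TPM (-0.47, adjusted p = 0.00822). By edgeR with TMM 20.3% of all tested were called higher and 19.6% lower (84 and 81), in place of 40 and 130 with library totals. Scaled to the family, 12.3% were called higher and 28.3% lower, and the members called lower were miR-30b-5p (-1.39), miR-30c-5p (-1.25) and miR-30e-5p (-0.37, adjusted p = 0.0281). The number called lower in that setting ran from 2 without HFD Sirt3 AKI replicate 3 to 4 without replicate 2.

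The 3p arms come from the same hairpins, so the ratio of 5p to 3p counts needs no scaling between libraries. miR-30a-3p and miR-30e-3p differed at 1 of 22 bases (G18A, with the base of miR-30a-3p first). Their reads, like those of the 5p arms, could have been split between the pair or shared. Whether this affected the ratios of miR-30a and miR-30e was not tested. For miR-30a the ratio was 21.4, 29.96 and 22.5 in HFD Sirt3 AKI, 16.2, 17.1 and 18.3 in HFD WT and 8.15, 9.62 and 9.57 in chow WT. The groups did not overlap. On the log2 scale, with 0.5 added to each count, the ratio was 0.92 higher in HFD WT than in chow WT (SE 0.21, limma, adjusted p = 0.00905 over 104 hairpin names with both arms tested), and 15.4% of those 104 were called higher. miR-30a-3p itself, the arm named in the title of the study, averaged 206 ± 3.87 normalised CPM in HFD Sirt3 AKI, 309 ± 17.2 in HFD WT and 546 ± 37.3 in chow WT, while the 5p arm of the same hairpin overlapped between the groups. Of the 6 measured 3p arms, 5 passed the filter on low counts. By edgeR miR-30a-3p was the 1 of these called lower in HFD WT than in chow WT (log2 fold change -0.83, adjusted p = 4.52e-04) and in HFD Sirt3 AKI than in HFD WT (-0.58, adjusted p = 0.0151), and none was called higher. Of all tested, 16.2% were called lower in the first comparison, and 8.94% were called in either direction in the second.

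For miR-30d the log2 ratio was 1.62 higher in HFD WT than in chow WT (SE 0.28, limma, adjusted p = 0.00268), but its 3p arm had 9, 7 and 10 counts in HFD WT and 4, 2 and 3 in chow WT. The change therefore rests on very few reads of the 3p arm. For miR-30e the difference was 0.40 (adjusted p = 0.277), for miR-30b 0.04 (adjusted p = 0.987), and for miR-30c-5p over miR-30c-2-3p -0.68 (adjusted p = 0.289). Between HFD Sirt3 AKI and HFD WT limma called 0% of the 104, with 19 at an unadjusted p below 0.05, of which 1 was a miR-30 hairpin. That was miR-30a, whose ratio was 0.50 higher (SE 0.21, adjusted p = 0.269), or 0.36 without HFD Sirt3 AKI replicate 2.

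**Figure D4:**
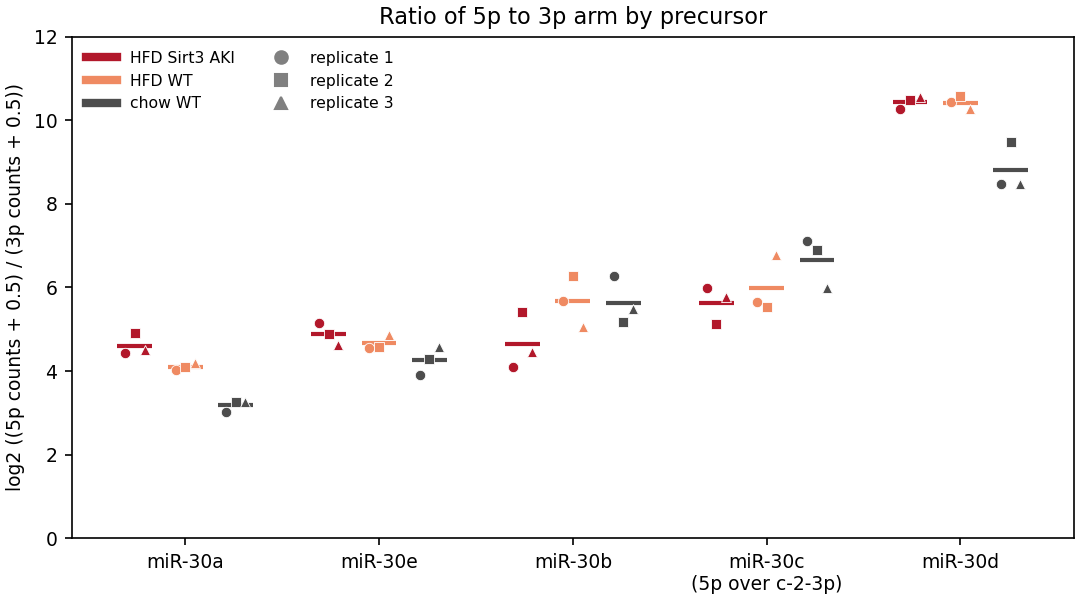
Log2 ratio of 5p to 3p counts, with 0.5 added to each (vertical axis), for 5 hairpin names in each library; colours are the 3 groups, symbols the replicate numbers and lines the group means. For miR-30a the 3 groups do not overlap, with chow WT lowest, and the miR-30d values rest on 3p counts of 2 to 4 in chow WT.

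Across the 9 libraries, which share their groups, the log2 normalised CPM of miR-30b-5p and miR-30c-5p ran together (Pearson r = 0.82), and miR-30d-5p ran opposite to both (r = -0.92 and -0.88). miR-30a-5p and miR-30e-5p, the near identical pair among the 3 members with a sequence here, had r = 0.48. Sharing of reads between members, which could also affect these correlations, was not tested. These values describe 3 groups of 3 and carry no p.

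The known microRNAs most alike to each member, among 165 others with a mean of at least 100 CPM, differed between members. For miR-30d-5p they were miR-150-5p, a microRNA of lymphocytes (r = 0.99), miR-128-3p and miR-1198-5p (r = 0.98 each). miR-150-5p averaged 5958 ± 394 CPM in HFD WT and 2452 ± 91.3 in chow WT. miR-30b-5p was most like miR-26a-5p (r = 0.96), miR-155-5p (0.93) and miR-10a-3p (0.91), and miR-30c-5p most like miR-301a-3p (0.94), miR-155-5p (0.93) and miR-30a-3p (0.91). miR-155-5p, a microRNA of activated immune cells, averaged 231 ± 14.3 CPM in HFD WT and 758 ± 90.3 in chow WT. The most alike to miR-30a-5p were miR-28a-3p (0.93), miR-29b-3p (0.83) and miR-322-5p (0.80), and to miR-30e-5p miR-142a-3p (0.83), miR-20a-5p (0.76) and let-7j (0.75).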

How the data were processed

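Per the labels' protocols, a commercial exosome isolation reagent precipitated the vesicles. The authors deposited raw counts and TPM per microRNA for all 9 libraries; the deposited TPM are the counts divided by the library total and set to a common sum, with no length term. The submitters' processing notes list Bowtie 0.12.2 and mm8 without saying what each was used for; the sources used here give no trimming, counting tool, mismatch setting or microRNA reference. Counts were filtered with filterByExpr (minimum count 10; 414 of 1169 known and predicted microRNAs passed, all 5 members among them) and tested with edgeR 4.0.16 (TMM, glmQLFit, glmQLFTest, all 3 groups in one fit; Benjamini-Hochberg over all tested) in R 4.3.3. The same fit was repeated with the summed counts of the 5 members as library size. Arm ratios used limma 3.58.1. Alternatives were DESeq2 1.42.0 and its size factors, library totals (with and without red cell markers), no filter, limma on log2(TPM + 1), only the groups compared, the batch label, a replicate block, identical microRNAs counted once, an added count of 1 in arm ratios and each library left out. Named microRNAs are the members, their 3p arms, microRNAs with the same seed, the 3 most correlated with each member and marker lists. Members and lists were chosen with earlier results of these data known. The tests were checked on simulated data. The promoter and protein tables were not used here.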

Additional observations from a re-analysis of the deposited data

How the results depend on the processing

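For HFD WT over chow WT, miR-30b-5p and miR-30c-5p were called lower under every alternative run, and miR-30d-5p higher under all but library totals (0.12) and limma on TPM (0.12). Those 2 settings called 0 members higher and 4 lower, with miR-30a-5p at -0.64 in both and miR-30e-5p at -0.59 in both. Of the 414 tested, library totals called 20 higher and 143 lower, and limma on TPM 21 and 156. Library totals less red cell markers gave -0.45 for miR-30a-5p and -0.40 for miR-30e-5p, and miR-30a-5p stood at -0.0134 with DESeq2 and with its size factors in edgeR. The median of all tested was -0.57 with library totals and -0.38 with library totals less red cell markers.

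For HFD Sirt3 AKI over HFD WT, 1 member, miR-30d-5p, was called higher with library totals (0.63), library totals less red cell markers (0.63), limma on TPM (0.64) and DESeq2 (0.43). Of all tested, these settings called 36, 40, 29 and 38 higher, in place of 6 with TMM. In the larger batch alone, with 1 HFD Sirt3 AKI library, miR-30d-5p stood at 0.51. The other members, none of which was called, turned direction in some of these settings. Library totals gave 0.27 for miR-30a-5p, 0.13 for miR-30b-5p, 0.14 for miR-30c-5p and 0.13 for miR-30e-5p. Without red cell markers in the totals the values were 0.26, 0.12, 0.14 and 0.12, and limma on TPM gave 0.23, 0.0876, 0.14 and 0.12. The larger batch alone gave 0.0267 for miR-30c-5p and 0.0102 for miR-30e-5p. miR-30a-5p stood at 0.0273 with DESeq2 and with its size factors and at 0.0670 with only the 2 groups. Leaving out 1 library gave 0 to 1 members called higher, 0.28 to 0.44 for miR-30d-5p and -0.19 to 0.0416 for miR-30a-5p.

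For HFD Sirt3 AKI over chow WT, only members that were not called with TMM turned direction. miR-30a-5p stood at -0.37 with library totals, -0.19 without red cell markers, -0.41 with limma on TPM, -0.18 with the batch label as a term and -0.0024 when its counts were summed with those of miR-30e-5p, an alternative chosen after seeing the data. miR-30e-5p was called lower with library totals (-0.46) and limma on TPM (-0.47), which made 3 members lower in place of 2. Of all tested, these settings called 130 and 139 lower, in place of 81 with TMM. miR-30e-5p stood at 0.20 with no filter, 0.0158 with the batch label and 0.22 in the larger batch alone, and at -0.0642 to 0.10 with 1 library left out. The difference in the family's share of all counts, HFD Sirt3 AKI minus chow WT, was 0.17 percentage points without red cell markers in the totals, in place of -0.13. The miR-30d arm ratio for HFD Sirt3 AKI over HFD WT was -0.15 with the batch label and in the larger batch alone. Leaving out 1 library moved arm ratios that were not called: -0.0710 to 0.0887 for miR-30d and -0.59 to 0.0382 for miR-30c-2 in HFD Sirt3 AKI over HFD WT, and -0.27 to 0.35 for miR-30b in HFD WT over chow WT. The cause of these shifts was not tested.

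Whether replicate numbers pair the samples cannot be settled with 3 libraries per group. Correlations of the deviations of same-numbered libraries ran from -0.03 to 0.11 for HFD WT and chow WT. They ran from -0.07 to -0.0019 for HFD Sirt3 AKI and HFD WT, and from 0.05 to 0.18, all positive, for HFD Sirt3 AKI and chow WT. In those comparisons 2 of 6, 0 of 6 and 4 of 6 libraries correlated best with their own number. With the replicate block miR-30d-5p stood at 0.85 for HFD WT over chow WT (adjusted p = 7.11e-04, edgeR), and the block ended 1 call of a member, that of miR-30e-5p scaled to the family in HFD Sirt3 AKI over chow WT (2 called lower in place of 3). Over all results and alternatives, 765 values were labelled the same. For a test this meant the same direction and side of the threshold, and for counts of members and family shares a small enough change. Of the rest, 47 turned direction, called or not, and 11 counts or shares moved. With the direction kept, 10 newly passed and 8 no longer passed. Those that turned include new calls, such as miR-30a-5p and miR-30e-5p with library totals in HFD WT over chow WT. The shallow chow WT libraries limit the 3p arms of miR-30b, miR-30c and miR-30d most.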
